A study of Homo sapiens with 2 samples.

Results

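The genes described here are the protein-coding ZNF genes of human chromosome 19, the chromosome on which the C2H2 zinc finger genes are most densely clustered. A gene was a member if its symbol was ZNF followed by a digit, if the annotation called it protein-coding, and if it lay on chromosome 19 of the GRCh38 build. That rule took 251 of the 58884 genes in the deposited table, and it used no measured value. Another 47 ZNF symbols on the chromosome were not protein-coding and were left out. The members include 4 readthrough loci, which join a ZNF gene to a neighbouring transcript (ZNF559-ZNF177, ZNF625-ZNF20, ZNF816-ZNF321P and ZNF8-ERVK3-1).

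RNA was measured in TPC-1, an established human papillary thyroid carcinoma line that carries the CCDC6-RET fusion. One library came from TPC-1 cells given a control siRNA, and the other from TPC-1 cells given an siRNA against XPR1, a gene whose product exports phosphate from the cell. Each group has 1 library, so no test of the treatment is possible, the spread between cultures is unknown, and no p-value is given. The line is a single tumour line, and the labels used here do not give the siRNA sequences or the time after transfection. XPR1 itself, on chromosome 1 at 180632004 to 180890251, stood at 39.2 TPM with control siRNA and 5.31 TPM with XPR1 siRNA, which leaves 13.5% (95% Clopper-Pearson interval 11.6 to 15.7). TPM is a length-corrected share of all transcripts in a library. Of 13 thyroid markers 4 reached a mean of 1 TPM, while NKX2-1, SLC5A5 and TSHR were at 0 in both libraries. None of 10 leukocyte markers and none of 4 neuroendocrine markers reached 1 TPM, against 2 of 7 endothelial, 2 of 7 fibroblast and 3 of 6 epithelial markers, with EPCAM at 0. The summed TPM of the thyroid list went from 615 with control siRNA to 438 with XPR1 siRNA, most of it PAX8, at 588 and 409 TPM. The sum went from 6.93 to 2.92 for the endothelial list, from 28.3 to 42.1 for the fibroblast list and from 197 to 135 for the epithelial list, and their part in the values below was not tested.

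C2H2 zinc finger proteins bind DNA through tandem fingers, each a short loop held around a zinc ion. In many of them a KRAB box at the amino end recruits TRIM28 (KAP1), which brings in the histone methyltransferase SETDB1, HP1 proteins and the NuRD complex, so that KRAB zinc finger proteins silence the loci they bind, many of them transposable elements. On chromosome 19 the genes stand in tandem clusters that grew by duplication, and the cluster near the centromere holds many primate-specific copies.

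Read as codon patterns in the GENCODE 29 coding sequence, a KRAB A box was present in 213 of the 251 members (84.9%) and a SCAN domain, a dimerization domain, in 3 (ZNF444, ZNF274 and ZNF446). The KRAB pattern required 6 of 7 codons, and it also matched 36 of 19056 coding genes without a finger, so it is an approximate reading. The number of finger patterns per member had a median of 12 and ran from 0 to 36, with ZNF208 the longest array.

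Most members were low in these cells. In both libraries 72 members (28.7%) were at 0, and another 35 were above 0 with a mean below 1 TPM. For the members at 0, the level that 3 reads would give, which a count of 0 allows, had a median of 0.142 TPM with control siRNA and 0.147 TPM with XPR1 siRNA, and it ran up to 0.568 and 0.590 TPM for the shortest. The other 144 reached a mean of 1 TPM and were compared, 107 of them below 10 TPM and 37 at 10 TPM or more. Summed over all 251 members, the level was 1173 TPM with the control siRNA and 1137 TPM with the XPR1 siRNA. In a member of median exonic length, 4968 bases, 1 read is worth 0.0477 TPM with control siRNA and 0.0496 TPM in the other, so the compared members rest on a median of 99.4 reads in the control library.

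The members without a KRAB pattern were the more abundant. Over all members of each kind, the median of the mean TPM was 1.27 for the 213 with KRAB and 8.82 for the 38 without, and 65 of the former but 7 of the latter were at 0 in both libraries. The most abundant member was ZNF146, at 89.5 TPM with control siRNA and 80.9 TPM with XPR1 siRNA. It encodes a protein made almost wholly of fingers and matched no KRAB pattern. ZNF581 followed with 57.7 TPM and 59.1 TPM, so the 2 libraries were close for both of these genes. ZNF317 stood at 49.3 TPM in the control and 35.5 TPM after XPR1 siRNA, and ZNF787 at 33.0 and 21.6 TPM. ZNF134 stood at 23.1 and 20.7 TPM, ZNF584 at 23.1 and 20.1 TPM, ZNF561 at 22.4 and 20.6 TPM, and ZNF121 at 22.8 and 18.99 TPM. Of these 8 most abundant members, 7 were lower with XPR1 siRNA, while ZNF581, with a difference of 0.03, turned to -0.02 and -0.06 under median-of-ratios and upper-quartile scaling.

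Compared as a set, the members differed little between the libraries. Differences are given on the log2(TPM + 1) scale, XPR1 siRNA minus control siRNA, which understates the differences of low genes. The median over the 144 compared members was 0.04, beside 0.05 over all 16319 genes compared and 0.10 over the 11698 protein-coding genes. Median-of-ratios scaling divides out the 1.04-fold gap between the libraries, a factor set from the median ratio over genes. An all-gene median of 0.00 is therefore fixed by that scaling, and the median of the members under it was 0.00 too. At least 1.5-fold on that scale, 14 members were higher and 11 lower. That is 9.72% and 7.64% of the members, beside 21.7% and 16.6% of all genes and 20.7% and 11.1% of protein-coding genes. At least 2-fold, 4 members were higher and 0 lower, beside 10.4% and 8.57% of all genes. Where the 95% counting interval of the TPM ratio was also required to leave out 1, the members counted 14 higher and 10 lower, beside 16.6% and 10.7% of all genes. The share of members past 1.5-fold was thus below the background in both directions.

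**Figure D1:**
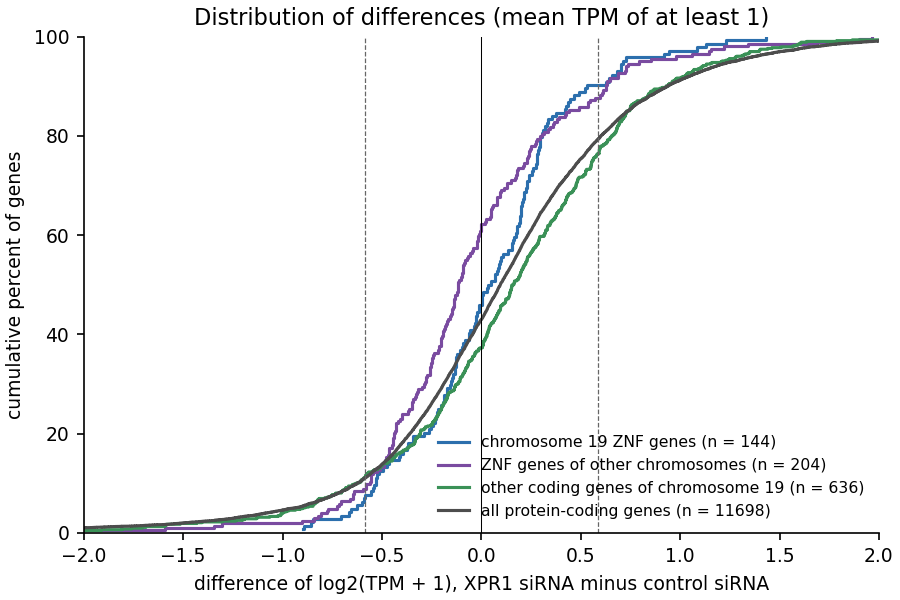
Cumulative percent of genes (vertical axis) against the difference of log2(TPM + 1), XPR1 siRNA minus control siRNA (horizontal axis, shown from -2 to 2), for genes that average 1 TPM or more, in 4 sets. Dashed lines mark 1.5-fold. The curve of the 144 chromosome 19 ZNF genes is steeper than that of all 11698 protein-coding genes, with a median of 0.04 against 0.10.

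The narrow spread was seen beside genes of like level too. Among protein-coding genes with a mean of 1 to 10 TPM the median difference was 0.17, with 26.1% higher and 10.7% lower. Among the 107 members in that range it was 0.11, with 13 higher (12.1%) and 7 lower (6.54%). ZNF genes of other chromosomes, of which 204 of 268 were compared, had a median of -0.12, with 25 higher (12.3%) and 18 lower (8.82%). Their shares were thus also low, so the narrow spread was not particular to chromosome 19. The other protein-coding genes of chromosome 19, of which 636 of 1221 were compared, had a median of 0.16, with 150 higher (23.6%) and 71 lower (11.2%). By domain, the 115 compared members with KRAB had a median of 0.08 with 12 higher and 7 lower, and the 29 without had a median of -0.06 with 2 higher and 4 lower. Across the 144 members, Spearman's rho with the difference was 0.01 for the number of fingers, -0.17 for exonic length and -0.29 for the mean TPM, values that share libraries and depth and are given as a description.

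**Figure D2:**
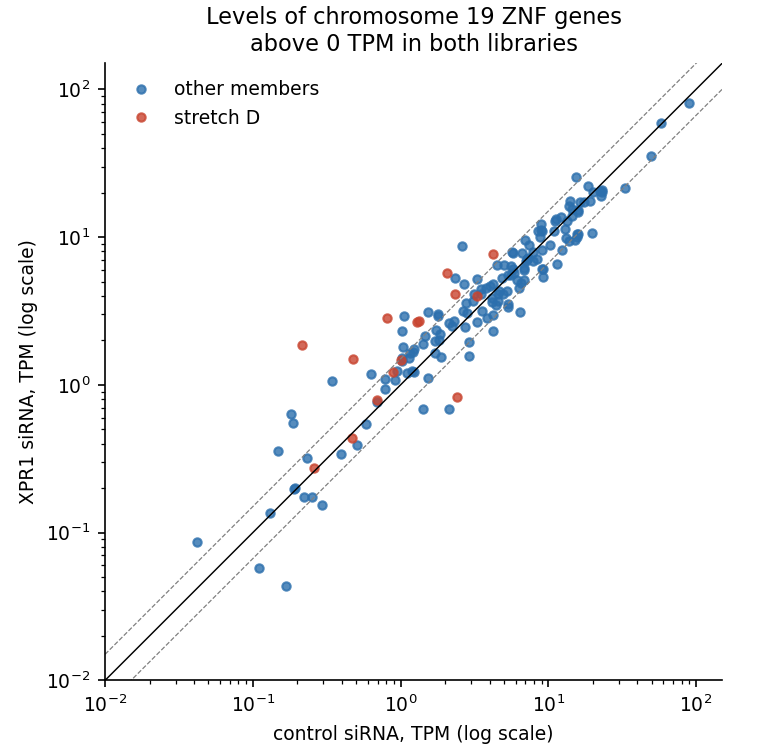
TPM in the XPR1-siRNA library against TPM in the control library, both on log axes, for each chromosome 19 ZNF gene above 0 TPM in both. The solid line is equality and the dashed lines are 1.5-fold ratios of TPM; red points are the genes of stretch D, most of which lie above the line, and points below 1 TPM rest on few reads.

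By position, the members fell into 9 runs, here called stretches A to I from the short-arm end to the long-arm end, in which neighbouring members lie at most 1000000 bases apart. The stretches hold 240 members, and 11 stand alone. Stretch D had the highest median difference of the 9. It holds 37 members between 19668796 and 24129961, next to the centromere on the short arm, of which 20 were at 0 in both libraries and 11 were compared. Those 11 had a median of 0.66, with 7 at least 1.5-fold higher and 1 lower, and their stretch summed to 21.8 TPM with control siRNA and 38.1 TPM with XPR1 siRNA, a ratio of 1.75. The floor is on the mean of the libraries, so ZNF90, ZNF675 and ZNF724 reached it only through the XPR1-siRNA library and ZNF14 only through the control. Of the 7 higher calls 2 (ZNF675 and ZNF724), and the 1 lower call, are such members, so these counts describe the stretch and support nothing further. The 133 compared members outside it had a median of 0.00, with 7 higher (5.26%) and 10 lower (7.52%). Of the 14 members at least 1.5-fold higher, 7 therefore lie in 1 stretch. The compared members of stretch D were also lower in level, with a median of the mean TPM of 1.98 against 5.58 outside it. Protein-coding genes of 1 to 10 TPM had a median difference of 0.17 with 26.1% higher, and the part of level in this contrast was not tested.

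The other stretches had medians between -0.14 and 0.37. Stretch A (2819874 to 2944971; 4 of 5 members compared) had a median of 0.14 and none past 1.5-fold. Stretch B (7069444 to 9793180; 12 of 16) had a median of -0.14, with 2 higher and 1 lower. Stretch C (11483427 to 12640098; 12 of 26) had a median of 0.00, with 2 higher and 1 lower, and 9 members at 0 in both libraries.

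On the long arm, stretch E (34677639 to 34964049; 4 of 5) had a median of 0.37 with 1 higher, and stretch F (36182060 to 37817300; 12 of 27) a median of 0.11 with 1 higher. Stretch G (43525497 to 45076588; 18 of 24) had a median of 0.10 and no member past 1.5-fold in either direction. Stretch H (51571298 to 53580269; 13 of 40) had a median of 0.21, with 1 higher and 2 lower, and 20 of its 40 members were at 0 in both libraries, the same number as in stretch D. Stretch I (55476332 to 58481230; 49 of 60), the end of the long arm, held the largest number of compared members, with a median of -0.10, none higher and 5 lower. At a floor of 5 TPM the median of stretch H turned to -0.31, and stretch D then held 1 compared member, ZNF708, so the 2 cannot be set beside each other at that level. The 9 compared members that stand alone had a median of -0.38, with 1 lower.

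**Figure D3:**
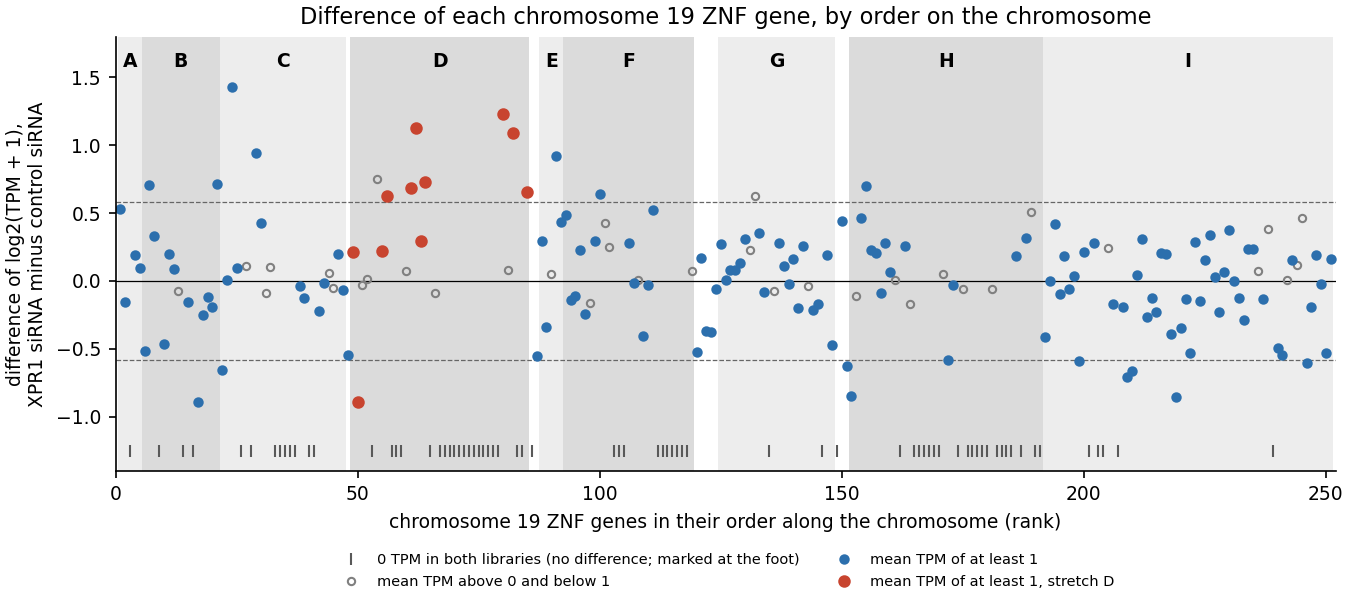
Difference of log2(TPM + 1), XPR1 siRNA minus control siRNA (vertical axis), for each chromosome 19 ZNF gene in its order along the chromosome (horizontal axis, rank), with stretches A to I shaded. Dashed lines mark 1.5-fold and ticks at the foot mark genes at 0 TPM in both libraries; in stretch D (red) 10 of 11 compared members lie above 0.

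Stretch D was read gene by gene, from the short-arm side. ZNF101 (19668796 to 19683509) stood at 3.29 TPM with control siRNA and 3.98 TPM with XPR1 siRNA. ZNF14 (19710471 to 19733097) stood at 2.40 and 0.83 TPM, 30 and 10 reads, and was the only compared member of the stretch that was lower, 2.89-fold. These are the outermost 2 members of the stretch, farthest from the centromere.

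Inward of them, ZNF90 (20077994 to 20127076) stood at 0.895 TPM in the control and 1.21 TPM after XPR1 siRNA, with a ratio of 1.36 and a counting interval of 0.723 to 2.63 that holds 1. ZNF486 (20167228 to 20200490) stood at 2.33 and 4.15 TPM. ZNF430 (21020620 to 21060050) stood at 1.28 and 2.67 TPM. The last 2 were 1.78-fold and 2.08-fold higher in TPM, with intervals from 1.201 to 2.67 and from 1.38 to 3.17.

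ZNF714 (21082159 to 21125270) stood at 2.06 TPM, 70 reads, in the control and 5.70 TPM, 186 reads, after XPR1 siRNA, a ratio of 2.76 (2.09 to 3.69). ZNF431 (21142024 to 21196053), its neighbour on the same strand, stood at 1.01 and 1.46 TPM, a ratio of 1.46 (1.03 to 2.06). ZNF708 (21291160 to 21329425) stood at 4.22 and 7.63 TPM, a ratio of 1.81 (1.36 to 2.43), and was the most abundant of the stretch in the XPR1-siRNA library.

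The remaining 3 lie closest to the centromere. ZNF724 (23221599 to 23250390) stood at 0.214 TPM, 3 reads, in the control and 1.85 TPM, 25 reads, after XPR1 siRNA, so that its ratio of 8.66 has a counting interval of 2.64 to 44.8. ZNF675 (23525631 to 23687220), also known as TIZ, an inhibitor of TRAF6 signalling, stood at 0.803 and 2.83 TPM, a ratio of 3.52 (2.19 to 5.88). ZNF254 (24033405 to 24129961) stood at 1.34 and 2.69 TPM, a ratio of 2.01 (1.37 to 2.97). All 3 had counting intervals above 1.

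Members of the stretch below the floor of 1 TPM did not all lean the same way. ZNF682, just under it, stood at 0.477 and 1.49 TPM, while ZNF91, a repressor of SVA transposons, stood at 0.690 and 0.789 TPM with an interval for the ratio of 0.676 to 1.94. ZNF506 stood at 0.472 and 0.439 TPM, and ZNF253, ZNF85 and ZNF493 had at most 4 reads in either library. Among the 20 at 0 in both were ZNF93, a repressor of LINE-1 elements, ZNF43, ZNF100 and ZNF208, whose limit is 0.104 and 0.108 TPM. With the floor dropped, the members of the stretch above 0 in either library had a median of 0.30. The 20 at 0 in both, whose difference is 0, are left out of it.

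**Figure D4:**
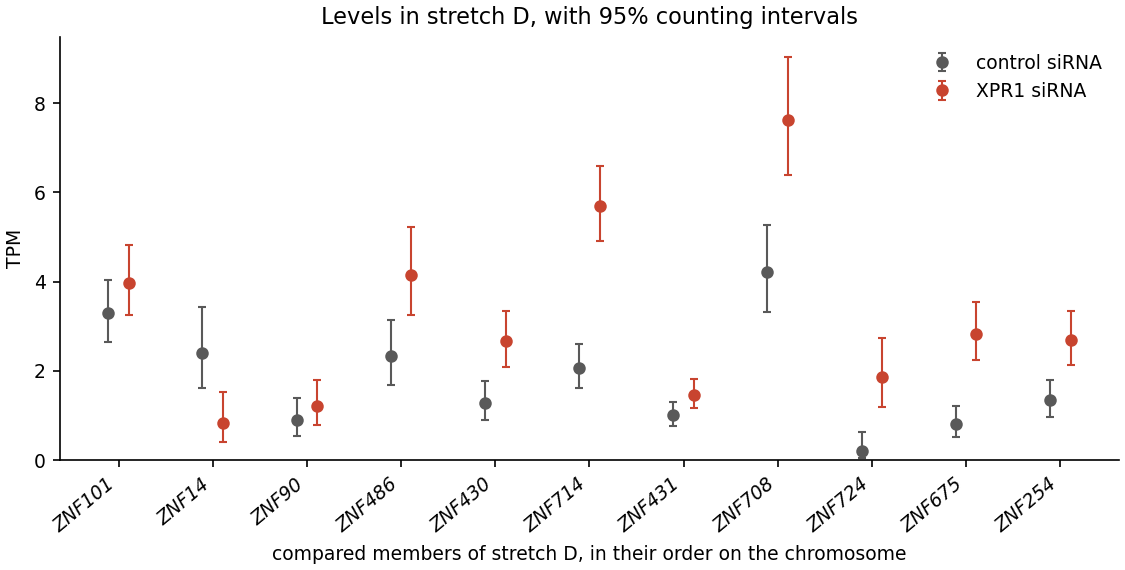
TPM (vertical axis) of the 11 compared members of stretch D in their order on the chromosome, control siRNA in grey and XPR1 siRNA in red. Bars are 95% exact Poisson intervals of the recovered reads and cover counting error only; 10 of the 11 stood higher in the XPR1-siRNA library, and those of ZNF101, ZNF90 and ZNF431 overlap between the libraries.

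Duplicated genes share sequence, which short reads can fail to place. Of the 31-base words in the transcripts of each compared member of stretch D, 39.5% (ZNF724) to 95.05% (ZNF14) occurred in no other gene's transcripts. Restricted to members with at least 80% of unique words, the stretch kept 8 compared members and a median of 0.67, while at 90% it kept ZNF14 alone. The sources used here do not say how reads that match several genes were counted. The stretch also held 7 compared genes that are no members, all non-coding or pseudogenes, with a median of 0.59, 4 higher and 0 lower. Among them IPO5P1 stood at 1.97 and 4.69 TPM and VN1R81P at 3.19 and 5.96 TPM, while RPSAP58 stood at 17.9 and 14.1 TPM. Of the 4 higher ones, 3 lie within the span of a member that was higher too: VN1R81P within that of ZNF714, and ENSG00000268362 and ENSG00000279425 within that of ZNF254. They are not independent of the members, and the library kit does not mark strand.

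Because the compared members of stretch D stood higher together, their promoters were read next, as windows from 250 bases before to 50 bases after each RefSeq start on GRCh38.p14. Windows were found for 219 members, 29 of them in stretch D. The similarity measure, its bounds, the reference and the genes printed here were all chosen after the expression values were seen. Each window was aligned to that of ZNF431, the window nearest on average to those of the other compared members of the stretch, and the score was expressed as a percent of ZNF431's score with itself. Where a gene had several starts, the most similar one was taken. Printed below are the last 110 bases before the start, with exact matches to CCAATCAG (a CCAAT box with 3 further letters) and CCGGAAG (an ETS-type motif), on either strand, in capitals. The first 3 are from stretch D, the fourth is a related gene on chromosome 7, and the last 2 are the outer members of stretch D.
ZNF431, chr19:21141930-21142039, plus strand: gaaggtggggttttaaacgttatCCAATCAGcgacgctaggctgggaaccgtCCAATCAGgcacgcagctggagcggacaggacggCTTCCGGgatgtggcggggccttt
ZNF714, chr19:21082093-21082202, plus strand: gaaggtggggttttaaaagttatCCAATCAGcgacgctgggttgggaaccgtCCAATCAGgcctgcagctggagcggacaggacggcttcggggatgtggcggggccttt
ZNF724, chr19:23250395-23250504, minus strand: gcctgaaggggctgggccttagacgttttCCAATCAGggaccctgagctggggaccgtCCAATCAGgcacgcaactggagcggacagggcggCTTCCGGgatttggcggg
ZNF92, chr7:65373745-65373854, plus strand: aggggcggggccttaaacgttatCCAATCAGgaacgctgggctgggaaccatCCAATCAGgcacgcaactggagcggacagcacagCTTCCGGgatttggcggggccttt
ZNF101, chr19:19668729-19668838, plus strand: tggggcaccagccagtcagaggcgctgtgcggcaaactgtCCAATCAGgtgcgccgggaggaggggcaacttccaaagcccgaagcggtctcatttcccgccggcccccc
ZNF14, chr19:19733113-19733222, minus strand: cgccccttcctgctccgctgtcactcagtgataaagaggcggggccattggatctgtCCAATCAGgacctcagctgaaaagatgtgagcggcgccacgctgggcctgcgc

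Over the whole window, the compared members of stretch D other than ZNF101 and ZNF14 were 65.7% to 91.0% identical to each other. Pairs with ZNF101 or ZNF14 were 45.0% to 64.0% identical. At least 50% of ZNF431's score was reached by 33 of 15313 coding genes with a window, 0.215% of them. Of these, 25 lie in stretch D and 8 on chromosome 7. All but 1 are ZNF genes, and the exception, on chromosome 7, is ERV3-1, which encodes an endogenous retroviral envelope. Of the 33, 15 were compared and 15 were at 0 in both libraries.

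The 15 compared genes of this promoter group had a median of 0.73, with 12 at least 1.5-fold higher and none lower. Of these, ZNF90, ZNF675, ZNF724 and ZNF273 reached the floor only through the XPR1-siRNA library. ZNF675 and ZNF724 are among the 12 higher, so the counts describe the group and support nothing further. Among all coding genes below 25% similarity, 9558 compared, the median was 0.09, with 1945 higher and 1040 lower. On chromosome 19 the group held 9 compared members, with 7 higher, and it left out ZNF101 and ZNF14 at 8.50% and 7.33% similarity. The members of chromosome 19 below 25% similarity, 126 compared, had a median of -0.02, with 6 higher and 10 lower. The 9 are the compared members of stretch D from ZNF90 inward, so their part of the count was chosen with their values known.

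The genes of the group on chromosome 7 were no part of the choice of reference. Of 8, 6 were compared, with a median of 0.76 and 5 at least 1.5-fold higher. Coding genes of other chromosomes below 25% similarity, 8898 compared, had a median of 0.09, with 1811 higher and 972 lower. ZNF92 stood at 3.71 TPM with control siRNA and 8.84 TPM with XPR1 siRNA, and ERV3-1 at 2.45 and 6.66 TPM. ZNF107 stood at 2.91 and 5.78 TPM, ZNF138 at 3.99 and 7.26 TPM, and ZNF680 at 2.17 and 4.25 TPM. ZNF273 stood at 0.876 and 1.51 TPM, with a difference of 0.42 that is under 1.5-fold on this scale, and it reached the floor only through the XPR1-siRNA library. All 6 had counting intervals of the ratio above 1. Unique words were worked out for chromosome 19 members only, so reads shared among these genes were not examined. The stretches before the starts of ZNF138 and ZNF92 begin at 64794318 and 65373745, so promoter likeness and position cannot be told apart for them. Positions of the other compared genes of the group on chromosome 7 were not set out, so the same limit holds for those. The 6 share promoter sequence and a chromosome, and are not 6 independent cases. Below 25% similarity, chromosome 7 ZNF genes stood past 1.5-fold in both directions, such as ZNF117 at 0.63 and ZNF783 at -0.82. ZNF117, at 2.67% similarity, was thus past 1.5-fold higher without that likeness, and its position was not set beside those of the group. Between 25% and 50% similarity the 4 compared coding genes had a median of 0.27, with 0 higher, among them ZNF195 at 7.28 and 8.33 TPM. These bands depend on the floor. Among the genes it left out, ZNF682 of stretch D, at 37.0% similarity, had a ratio of 3.12 (1.48 to 7.15). ZNF91, at 71.7% similarity and left out too, had a ratio of 1.14 (0.676 to 1.94).

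**Figure D5:**
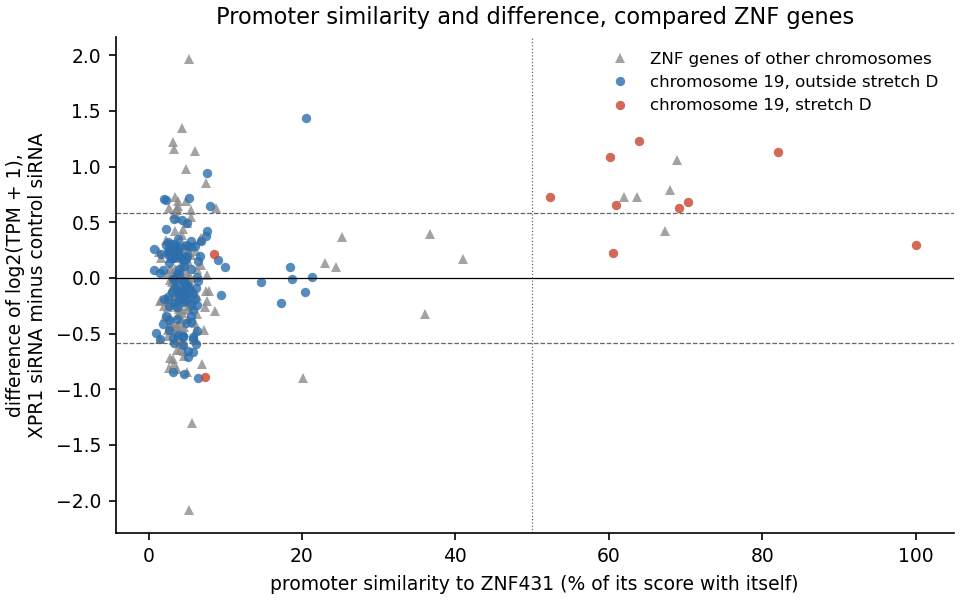
Difference of log2(TPM + 1), XPR1 siRNA minus control siRNA (vertical axis), against promoter similarity to ZNF431 as a percent of its score with itself (horizontal axis), for compared ZNF genes with a RefSeq window. Dashed lines mark 1.5-fold and the dotted line 50% similarity; to its right all points lie above 0, on chromosome 19 (red) and on chromosome 7 (grey), and to its left points lie on both sides. ERV3-1 is not a ZNF gene and is not drawn.

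The CCAATCAG motif of these promoters was shared by compared members of stretch D and by those at 0 in both libraries. CCAATCAG was present in 29 of 29 windows of stretch D, beside 5.28% of coding genes, and 48.3% held at least 2 copies, beside 0.555%. It was not particular to that stretch: 22 of 25 windows of stretch C, whose median difference was 0.00, held it, and in stretch A 4 of 5 windows held at least 2 copies. CCGGAAG was present in 72.4% of the windows of the stretch, beside 14.4% of coding genes, and TTTGGCGC, an E2F-type motif, in 17.2%, beside 0.862%. The members of the stretch at 0 in both libraries held CCAATCAG too, in 14 of 14 windows, as did ZNF101 and ZNF14. In all, 10 motifs were searched on both strands, and CCAATCAG was chosen after the windows had been read; the bare CCAAT it contains was present in 100% of the windows of the stretch and in 36.1% of coding genes. GGGCGG (SP1-type) was present in 75.9% and 60.1%, TATAAA in 10.3% and 9.19%, and AAGATGGC (YY1-type) in 3.45% and 4.02%. Some motifs differed between the 11 windows of compared members of the stretch and the 14 of members at 0 in both libraries. GGGCGG was in 45.5% and 92.9% of them, CCGGAAG in 63.6% and 78.6%, and TTTGGCGC in 27.3% and 14.3%. GCATGCGC (NRF1-type), TGACGTCA (a cyclic AMP response element) and CTCGCGAG (ZBTB33-type) were in none of the 29, beside 4.24%, 2.63% and 1.52% of coding genes. For a gene with several starts, the window read was the one most similar to that of ZNF431. That window itself holds CCAATCAG and CCGGAAG, so the shares of these 2 motifs are not independent of that choice. A match is a description of these letters and says nothing about binding.

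Outside stretch D, 7 compared members were at least 1.5-fold higher. ZNF823 (11721265 to 11739009, stretch C) had the largest difference of all compared members on the log2(TPM + 1) scale, at 2.60 TPM with control siRNA and 8.71 TPM with XPR1 siRNA, 27 and 87 reads, a ratio of 3.35 (2.15 to 5.37). By the ratio of TPM, ZNF724 and ZNF675 stood above it, and with a pseudocount of 0.1 the difference was 1.71 for ZNF823 and 2.64 for ZNF724. ZNF69, in the same stretch, stood at 1.05 and 2.94 TPM, a ratio of 2.80 (1.44 to 5.76) on 13 and 35 reads. ZNF30 in stretch E stood at 2.33 and 5.29 TPM, a ratio of 2.27 (1.42 to 3.73). All 3 stood below 3 TPM with control siRNA, and their counting intervals lie above 1.

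The other 4 were smaller on the log2(TPM + 1) scale. ZNF846 in stretch B stood at 1.03 and 2.33 TPM, and ZNF613 in stretch H at 1.54 and 3.13 TPM. ZNF567 in stretch F stood at 2.71 and 4.80 TPM. ZNF358, in stretch B, was the only one of the 14 above 10 TPM, at 15.4 TPM with control siRNA and 25.7 TPM in the other, a ratio of 1.67 (1.34 to 2.09), and it shares exon positions with a gene on the opposite strand.

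Of the 11 lower members, 10 lie outside stretch D and none reached 2-fold on the log2(TPM + 1) scale. ZNF426 in stretch B had the largest difference, -0.90, at 2.14 TPM with 68 reads in the control and 0.685 TPM with 21 reads after XPR1 siRNA, 3.12-fold lower in TPM. ZNF175 (51571298 to 51592508, stretch H), also known as OTK18, stood at 19.9 and 10.6 TPM on 620 and 318 reads, 1.87-fold lower. ZNF473 (50025714 to 50053414), which stands alone and encodes ZFP100, a factor in the 3′ end processing of histone mRNA, stood at 15.2 and 9.50 TPM, 1.60-fold lower. It too shares exon positions with genes on the opposite strand.

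Stretch I held 5 of the lower members. ZNF773 stood at 6.46 TPM in the control and 3.11 TPM after XPR1 siRNA, ZNF805 at 11.4 and 6.59 TPM, and ZNF460 at 9.17 and 5.41 TPM. ZNF787 (56087366 to 56121280), at 33.0 and 21.6 TPM, was 1.53-fold lower on 511 and 322 reads. ZNF837 stood at 2.90 and 1.56 TPM, and its interval for the ratio, 0.254 to 1.10, holds 1. ZNF653 in stretch C stood at 4.20 and 2.30 TPM, and ZNF83 in stretch H, the last of the 11, at 15.6 and 10.03 TPM. The lower members were spread over stretches and levels. In stretch I, ZNF805 and ZNF460 are neighbours. The members from ZNF419 to ZNF416 all stood below 0 as well, at -0.39 (ZNF419), -0.86 (ZNF773), -0.35 (ZNF549), -0.13 (ZNF550) and -0.53 (ZNF416). Of that run only ZNF773 passed 1.5-fold, and the run was picked after the values were seen. ZNF549 and ZNF550 share exon positions on opposite strands, and ZNF419 and ZNF773 both share them with the same further gene. Between neighbouring compared members outside stretch D, Spearman's rho of the differences was 0.06 over 116 pairs, given as a description.

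The remaining extremes of stretches were smaller. In stretch G the highest was ZNF230, at 1.47 and 2.15 TPM, and the lowest ZNF296, at 5.30 and 3.53 TPM, and both counting intervals hold a ratio of 1. In stretch F the lowest was ZNF383, at 2.93 and 1.96 TPM. In stretch I the highest was ZNF524, at 6.91 and 9.57 TPM, with an interval of 0.896 to 2.13.

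The machinery that KRAB proteins use was expressed in both libraries. All 40 genes of a list of KRAB co-repressor and heterochromatin genes reached 1 TPM, with a median difference of 0.23, 14 at least 1.5-fold higher and 2 lower, beside 20.7% and 11.1% of protein-coding genes. TRIM28, the scaffold that binds the KRAB box, stood at 213 TPM in the control and 218 TPM after XPR1 siRNA, a ratio of 1.02 (0.978 to 1.07). SETDB1, a histone H3 methyltransferase, stood at 36.0 and 27.4 TPM, 1.32-fold lower. The counting interval of TRIM28 holds 1 and that of SETDB1, 0.692 to 0.834, does not.

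At the extremes of that list, UHRF1, which couples maintenance of DNA methylation to replication, stood at 15.3 TPM in the control and 42.0 TPM after XPR1 siRNA. CBX1, an HP1 protein, stood at 53.2 and 136 TPM, and HELLS, a chromatin remodeller, at 6.63 and 16.0 TPM. RESF1, a partner of SETDB1, stood at 29.5 and 15.7 TPM. The NuRD subunits GATAD2B and GATAD2A stood at 39.4 and 25.8 TPM and at 56.3 and 37.3 TPM. On the log2(TPM + 1) scale the first passed 1.5-fold and the second, 1.51-fold lower in TPM, did not. Some other genes of that complex on the list were past 1.5-fold higher and were named after their values were seen. Their differences were 0.60 for MBD3, 0.68 for CHD3, 0.70 for RBBP4, 0.88 for RBBP7 and 0.98 for HDAC1. Within 1.5-fold, MTA2 (0.19) and HDAC2 (0.16) were higher, while CHD4 (-0.12) and MTA1 (-0.28) were lower. ZNF274, the SCAN and KRAB member known to bind zinc finger genes and recruit SETDB1 to them, stood at 12.5 and 8.22 TPM. It was 1.52-fold lower in TPM, while its difference of -0.55 is under 1.5-fold on the log2(TPM + 1) scale.

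Other zinc finger genes of the chromosome, 19 coding genes with ZFP, ZSCAN, ZKSCAN, ZIM, ZIK or ZBTB symbols or PEG3, had 7 compared, 0 higher and 3 lower. The lower ones were ZFP36, a CCCH protein that binds RNA and is no C2H2 factor, at 44.1 and 18.7 TPM, ZBTB7A at 66.7 and 39.7 TPM, and ZSCAN22 at 7.59 and 3.86 TPM.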

How the data were processed

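RNA of 2 TPC-1 libraries, 1 per siRNA, was deposited by the authors as TPM, without read counts. Per the labels' protocols, the TruSeq v2 RNA kit was used, which does not mark strand. The submitters' processing notes list Trimmomatic 0.38 and featureCounts 2.0.0 on GRCh38. Not given in the sources used here are the aligner, the annotation and the treatment of multi-mapping reads. Symbols came from a table of gene identifiers, with lengths and positions from GENCODE 29. The members and lists were chosen with earlier results of these data known.

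Genes that averaged 1 TPM or more were compared on log2(TPM + 1) and counted past 1.5-fold and 2-fold. With 1 library per group there is no test. TPM times exonic length came out in steps, of 237.0 with control siRNA and 246.3 with XPR1 siRNA. Divided by it, 92.4% and 92.5% of genes with up to 10 reads came within 0.01 of a whole number, but only 71.2% and 71.3% of all genes above 0. Depth was then about 15780000 and 15150000 reads. The step was refined after seeing these shares. Of the compared members, 78 were whole to within 0.05 reads in both libraries; for the others, reads and 95% Clopper-Pearson intervals of the ratio are approximate. Intervals and limits cover counting error only, and without molecular identifiers reads may repeat a molecule. The reading of steps, differences and intervals was tested on reads simulated with these same exonic lengths. That test could not show an error that comes from a different annotation. Of the members, 80 share exon positions with a gene on the opposite strand and 86 with one on the same strand, and reads of such pairs can be shared between them.

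Named members are those with the 10 highest and 10 lowest differences, the 8 most abundant and the extremes of each stretch; stretch D is given in full above 0 TPM. ZNF83, ZNF274, the run from ZNF419 to ZNF416 and the genes of chromosome 7 were named after their values were seen. The KRAB and SCAN codon patterns, the promoter group, its motifs and the restriction to unique words were designed after the files were opened. Alignments used biopython 1.88 (global, match 1, free end gaps), and other work Python 3.11.15, numpy 2.4.6, pandas 2.3.3 and scipy 1.17.1.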

Additional observations from a re-analysis of the deposited data

How the results depend on the processing

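Stretch D kept a positive median under the scalings, pseudocounts, floors, gaps and recovered reads tried, from 0.29 to 0.85, although at the floor of 5 TPM it rests on ZNF708 alone (0.73). Members at 0 in both libraries were left out even with no floor. The median reversed under the restriction to members with at least 90% of unique 31-base words, added after the data were seen, where ZNF14 alone was left and the median was -0.89; the bound of 80% was tried after that and gave 0.67 over 8 members. At 90%, 5 members were higher and 6 lower. The near-zero member median of 0.04 changed sign with the settings, to -0.02 with upper-quartile scaling and -0.03 at a floor of 5 TPM. Upper-quartile scaling gave 17 lower members, and TRIM28 then stood at -0.06. A pseudocount of 5 left 3 members higher and 1 lower (all genes 2076 and 1485; XPR1 -2.10), and a floor of 5 TPM 3 and 6 (all genes 2077 and 1427; stretch H -0.31). At 1 to 10 TPM, 7 members were lower, all genes counted 1908 and 1623, and the medians were 0.049 for ZNF genes of other chromosomes and 0.32 for other coding genes of chromosome 19. Members with whole reads gave 4 lower. The cause of these shifts was not tested.

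The count of 12 higher genes in the promoter group was 12 and 11 at bounds of 40% and 60%, and 8 to 12 with each of the other 8 compared group members of stretch D as the reference. With ZNF101 or ZNF14 as the reference the group held that gene alone and counted 0. These alternatives were added after the data were seen. No paired analysis was possible because a group is 1 library. The depth limits the low members most: ZNF724 rests on 3 reads in the control library.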
